A study of Mus musculus with 12 samples.

Results

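The 10 genes described here mark macrophages of the mouse liver: Clec4f, Vsig4, Timd4, Cd5l, Marco, Adgre1, Csf1r, Cd163, Msr1 and Cd68. They were chosen by symbol from the 25611 genes of an RNA-seq count table, and all 10 were among the 13190 genes with enough reads to be tested. RNA was taken from the whole liver of 12 male C57BL/6J mice aged 8 to 10 weeks, 4 in each of 3 groups, at 30 hr after surgery. Sham mice had an abdominal incision only. CLP mice had their cecum ligated and punctured (cecal ligation and puncture), a model in which gut bacteria leak into the abdomen and cause polymicrobial sepsis. CLP+DCA mice had the same surgery and received dichloroacetate (DCA), an inhibitor of the pyruvate dehydrogenase kinases, at 25 mg/kg at 24 hr, so that their livers were harvested 6 hr after the injection. All mice, sham included, were given saline under the skin, and what sham and CLP mice were injected with at 24 hr is not given in the sources used here. All animals were wild type, of 1 strain and 1 sex. The comparisons ask how the RNA of these macrophage genes differed between septic and sham livers, and whether it differed once DCA had been given.

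Kupffer cells are the resident macrophages of the liver and lie inside its sinusoids, where they take up bacteria, aged red cells and debris from portal blood. They are maintained by signals through CSF1R, the receptor for the growth factors CSF1 and IL-34, and they owe their identity to lineage factors such as PU.1 (Spi1), LXRα (Nr1h3) and ID3. In sepsis they meet bacteria early, and monocytes and neutrophils enter the liver from the blood. Clec4f, a C-type lectin, is restricted to Kupffer cells in the mouse. Vsig4 (the complement receptor CRIg), Timd4 (TIM-4, a receptor for phosphatidylserine on dying cells), Cd5l (the secreted protein AIM) and Marco (a scavenger receptor for bacteria) are typical of resident Kupffer cells, although each is also found in other tissue macrophages. Adgre1 (F4/80), Csf1r, Cd163 (the receptor for hemoglobin bound to haptoglobin), Msr1 (scavenger receptor A) and Cd68 (a lysosomal glycoprotein) are shared by macrophages of many tissues.

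The 250 bases upstream of the annotated start are shown for 4 of the genes, Marco and Cd163 because they differed most between CLP and sham livers, and Clec4f and Vsig4 as markers of resident cells. They are given 5′ to 3′ on the strand of the gene, from RefSeq on build GRCm38.p6, with the core GAGGAA bound by PU.1 in capitals. Marco lies on the minus strand (chr1:120505025-120505274), Cd163 on the plus strand (chr6:124304401-124304650), Clec4f on the minus strand (chr6:83656117-83656366) and Vsig4 on the minus strand (chrX:96293439-96293688).
Marco: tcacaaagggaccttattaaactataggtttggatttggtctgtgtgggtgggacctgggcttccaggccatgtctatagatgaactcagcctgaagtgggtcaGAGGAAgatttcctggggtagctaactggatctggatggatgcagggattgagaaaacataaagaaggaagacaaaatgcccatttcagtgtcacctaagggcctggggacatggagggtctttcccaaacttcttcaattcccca
Cd163: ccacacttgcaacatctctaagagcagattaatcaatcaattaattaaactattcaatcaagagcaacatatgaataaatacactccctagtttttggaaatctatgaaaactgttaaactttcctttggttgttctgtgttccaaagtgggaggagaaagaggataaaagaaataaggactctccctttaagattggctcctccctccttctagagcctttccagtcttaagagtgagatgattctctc
Clec4f: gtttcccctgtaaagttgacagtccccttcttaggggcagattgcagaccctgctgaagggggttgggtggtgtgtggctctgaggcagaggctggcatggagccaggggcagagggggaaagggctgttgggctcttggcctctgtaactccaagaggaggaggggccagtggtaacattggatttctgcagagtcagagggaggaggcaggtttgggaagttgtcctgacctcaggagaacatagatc
Vsig4: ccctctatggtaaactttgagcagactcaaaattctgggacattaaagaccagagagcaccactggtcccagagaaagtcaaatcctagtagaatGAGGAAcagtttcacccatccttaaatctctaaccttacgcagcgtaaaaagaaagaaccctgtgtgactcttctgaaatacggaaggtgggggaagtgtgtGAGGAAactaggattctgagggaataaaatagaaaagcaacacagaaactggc
Promoters of 7 of the genes were matched, each 300 bases long with 250 before the start and 50 from it on, and Adgre1, Csf1r and Msr1 were not included. Counted with the start as 0, GAGGAA stood in Vsig4 at -155 to -150 and at -53 to -48, in Marco at -146 to -141, in Cd5l on the opposite strand at -66 to -61, and in Cd68 at -225 to -220 and on the opposite strand at 29 to 34. The core was thus present in 4 of 7, and in 28.3% of the 32817 mouse promoters of the same length searched on both strands. The other 4 motifs searched were rarer in these windows. The AP-1 motif TGANTCA and the C/EBP motif TTGCNNAA were found in Cd68 alone, and are present in 7.81% and 10.8% of all promoters. Neither the STAT motif TTCNNNGAA (8.29% of all promoters) nor the glucocorticoid receptor motif (0.475%) was found in the 7 windows. A match is a run of letters and not a bound site. On mm10 the count table places Marco at chr1:120474538-120505084 (17 merged exons in GENCODE M21), Cd163 at chr6:124304651-124330527 (17 exons), Msr1 at chr8:39581700-39642678 (11 exons) and Clec4f at chr6:83644542-83656116 (7 exons). The Marco span of the count table ends at 120505084 and so covers part of the window shown, which runs from 120505025. The Marco positions given above are counted from the start used for that window.

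Between 24436513 and 44266819 reads were counted per liver, and the 10 genes held between 90 and 4158 reads each in a liver. Levels are given in CPM, read counts scaled to a common library size after TMM normalisation. The SD between mice is given as the error, and counting error alone, with no molecular identifiers, would understate it. Defining markers of hepatocytes were abundant in all livers, but their summed level was lower after CLP, at 62752 to 82372 CPM in sham, 27817 to 44885 CPM in CLP and 24949 to 58025 CPM in CLP+DCA mice. The liver of CLP mouse 3 also held skeletal muscle RNA, with 2481 CPM over 8 muscle genes (picked after seeing the data) against 0.159 to 2.92 CPM in the other 11 livers. The liver of CLP+DCA mouse 3 stood apart from its group: a chi-square per degree of freedom of its counts against the other 3 was 490.1 to 682, against 25.6 to 68.1 among those 3. The CLP livers were not uniform either. This value was 32.9 between CLP mice 2 and 4 and 75.8 between CLP mice 1 and 3, but 126 to 311 for the other pairs of CLP livers.

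Per kb of exon, Cd5l and Clec4f were the most abundant of the 10 in sham livers, at 31.3 ± 7.52 and 24.1 ± 5.62 CPM per kb (mean ± SD, n = 4), and the ranges of these neighbours overlapped. Vsig4 followed at 11.2 ± 3.08 CPM per kb, with a range apart from that of Clec4f above it and of Csf1r, the next gene below. The range of Vsig4 (from 8.40 CPM per kb) did overlap with that of Marco, which reached 10.1 CPM per kb in sham. The remaining 7 genes lay between 1.94 CPM per kb (Cd163) and 5.97 CPM per kb (Csf1r), each overlapping with its neighbour in the order. In CLP livers the order was Cd5l (38.2 CPM per kb), Marco (30.4), Clec4f (19.9) and Vsig4 (13.2), with only Vsig4 and the next gene, Csf1r (7.05), apart. Marco thus moved from the fifth place in sham to the second in CLP livers. In CLP+DCA livers every neighbour overlapped with the next.

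The scavenger receptor genes Marco, Cd163 and Msr1 were higher in every CLP liver than in every sham liver, whereas the other 7 genes overlapped between the groups. Of the 10 genes, Cd163 alone passed an FDR of 0.05 in edgeR's quasi-likelihood test on all 12 livers, by which 2.78% of the 13190 genes were called (1.64% in the higher direction). In 3 of the 10 genes every CLP liver was above every sham liver, which held for 12.2% of all genes tested. Counting both directions, the groups did not overlap in 3 of the 10 genes and in 26.5% of all genes. The same 3 had an unadjusted p under 0.05, as 28.6% of all genes did in either direction and 15.5% in the higher direction. The median log2 fold change of the 10 genes was 0.29, beside 0.02 over all genes tested. In whole liver, a difference in the number of macrophages and a difference in RNA per macrophage cannot be told apart.

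Marco, which binds bacteria and modified lipoproteins, was at 7.66, 6.14, 19.4 and 6.43 CPM in sham mice 1 to 4, at 54.6, 87.7, 31.1 and 60.9 CPM in CLP mice 1 to 4, and at 43.6, 46.9, 86.9 and 6.87 CPM in CLP+DCA mice 1 to 4. Every CLP liver was above every sham liver, 3 of the 4 CLP+DCA livers were within the CLP range, and CLP+DCA mouse 4 was at the level of sham. The CLP mean of 58.6 ± 23.2 CPM was 5.91-fold that of sham (9.91 ± 6.37 CPM, SD, n = 4), a log2 fold change of 2.56 ± 0.65 (SE) with an adjusted p of 0.0554 in edgeR. The threshold was thus missed although this was the largest fold change of the 10. It was passed when the muscle-bearing liver of CLP mouse 3 was left out (2.77, adjusted p = 0.0402, with 7.46% of all genes called). It was also passed without CLP+DCA mouse 3 (2.56, adjusted p = 0.0197, with 23.8% called) and without CLP+DCA mouse 4 (3.92% called).

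Cd163, the receptor through which macrophages clear hemoglobin, was at 12.1, 8.15, 9.43 and 5.09 CPM in sham, at 29.4, 25.3, 20.9 and 16.6 CPM in CLP and at 26.2, 18.1, 13.9 and 9.89 CPM in CLP+DCA mice. The lowest CLP liver was above the highest sham liver, and the CLP+DCA livers spanned both groups. Its mean rose from 8.70 ± 2.92 CPM in sham to 23.1 ± 5.52 CPM in CLP, 2.66-fold, with a log2 fold change of 1.41 ± 0.32 and an adjusted p of 0.0461 in edgeR. This call was lost, with the fold change between 1.22 and 1.61, when any sham liver, CLP mouse 1, 2 or 4, or CLP+DCA mouse 2 was left out (adjusted p between 0.0641 and 0.125).

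Msr1, which takes up modified lipoproteins and bacterial lipids, was at 9.71, 7.30, 10.6 and 8.29 CPM in sham, at 19.8, 19.0, 13.1 and 16.9 CPM in CLP and at 11.4, 12.8, 23.1 and 7.86 CPM in CLP+DCA mice. All CLP livers exceeded all sham livers, and the highest level of any liver was that of CLP+DCA mouse 3. The fitted CLP to sham ratio was 1.92-fold (log2 fold change 0.94 ± 0.28, adjusted p = 0.0739 in edgeR). Under DESeq2 on the 12 livers (13% of genes called), edgeR on the 8 livers of both groups (18.3%) and voom with sample weights (25.9%), Marco, Cd163 and Msr1 were all called. The fits were also run on counts simulated for this comparison, with 200 changed genes, edgeR's own dispersion estimates and no liver set apart. Wrong calls there numbered 46 for DESeq2, 11 for edgeR on 12 livers, 5 for edgeR on 8 livers and 8 for voom. The changed genes recovered were 195, 189, 188 and 187 in that order. Whether these numbers hold for the real livers was not tested.

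**Figure D1:**
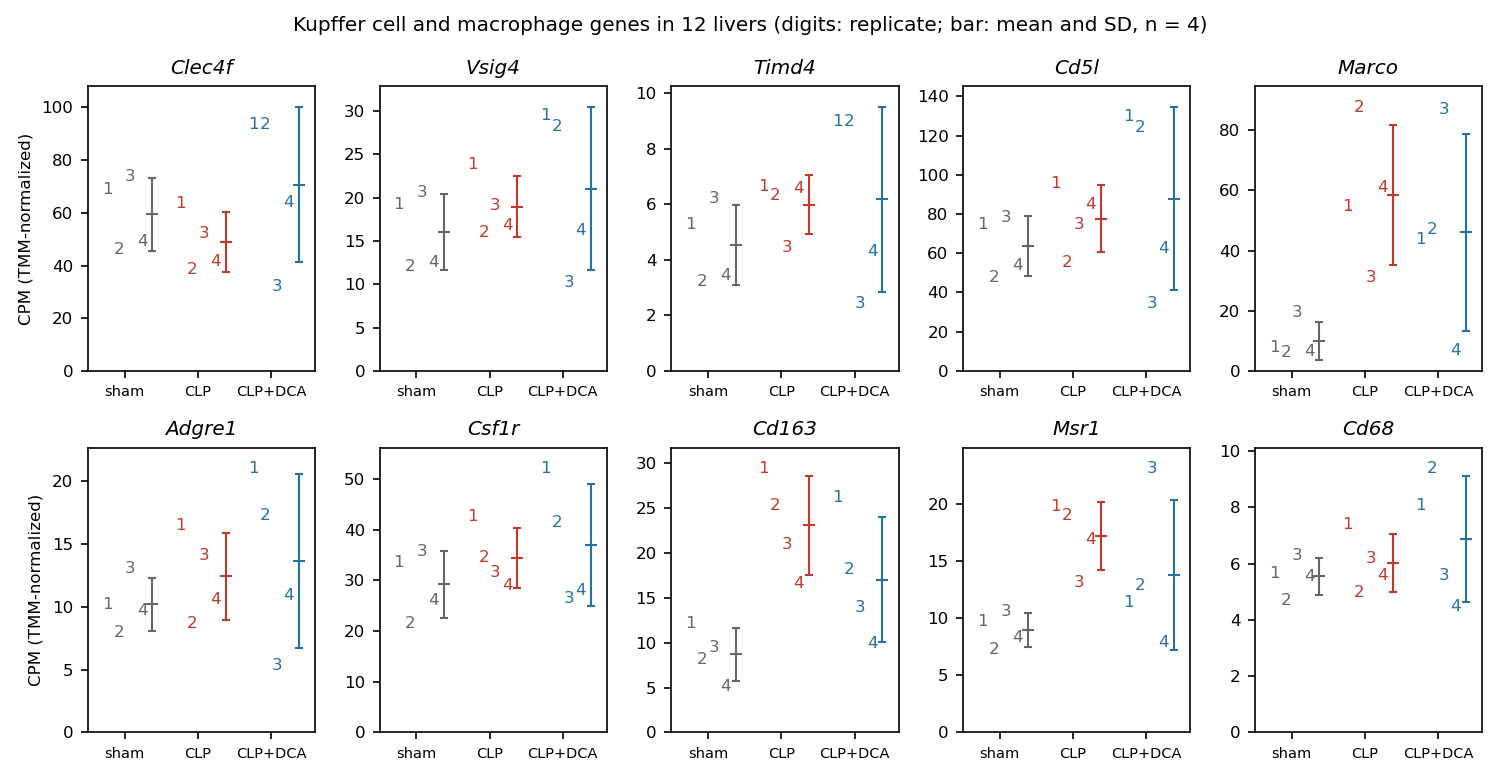
Normalised level (CPM, y axis) of each of the 10 genes in each liver, with sham, CLP and CLP+DCA on the x axis; digits are mice by replicate number, and bars are the mean ± SD of 4 mice. The CLP digits of Marco, Cd163 and Msr1 lie above all sham digits, and CLP+DCA mouse 3 is the lowest of the 12 for Clec4f, Vsig4, Timd4, Cd5l and Adgre1.

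None of the 5 markers of resident Kupffer cells passed the test in CLP livers, Marco included, and for the other 4 the groups overlapped. Clec4f was at 68.9, 46, 73.7 and 49.2 CPM in sham, at 63.7, 38.5, 52.3 and 41.7 CPM in CLP and at 93.5, 93.6, 31.9 and 64.0 CPM in CLP+DCA mice. It was the only one of the 10 genes whose fitted level was lower in CLP than in sham livers, by a log2 fold change of -0.28 ± 0.30 (adjusted p = 0.556), and the groups overlapped. Vsig4, which captures complement-coated bacteria from the blood, was at 19.2, 12, 20.5 and 12.5 CPM in sham, at 23.9, 16, 19.1 and 16.8 CPM in CLP and at 29.5, 28.3, 10.2 and 16.3 CPM in CLP+DCA mice. Within each group its order followed that of Clec4f closely, with the exception of a small exchange in CLP+DCA mice 1 and 2, and the CLP to sham log2 fold change was 0.24 ± 0.31 (adjusted p = 0.612).

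Timd4, by which resident macrophages bind apoptotic cells, was the least abundant of these markers. Its level was 5.28, 3.22, 6.21 and 3.45 CPM in sham, 6.64, 6.32, 4.42 and 6.56 CPM in CLP and 8.97, 8.97, 2.44 and 4.29 CPM in CLP+DCA mice, on 90 to 288 reads per liver. In CLP, 3 livers were close together and above all sham livers, while CLP mouse 3 was within the sham range (log2 fold change 0.40 ± 0.38, adjusted p = 0.485). Cd5l, a secreted regulator of lipid metabolism and cell survival, was at 74.9, 47.6, 78.4 and 53.6 CPM in sham, at 95.8, 55.3, 74.8 and 84.9 CPM in CLP and at 129.7, 124, 34.6 and 62.6 CPM in CLP+DCA mice. The sham and CLP livers overlapped over most of their range (0.29 ± 0.36, adjusted p = 0.604).

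Of the genes shared by macrophages in general, Adgre1, Csf1r and Cd68 overlapped between sham and CLP livers, unlike Cd163 and Msr1. Adgre1, an adhesion receptor used to identify macrophages, was at 10.2, 7.92, 13.0 and 9.74 CPM in sham, at 16.5, 8.67, 14.0 and 10.6 CPM in CLP and at 21, 17.2, 5.36 and 10.9 CPM in CLP+DCA mice. CLP mice 1 and 3 were above all sham livers and CLP mice 2 and 4 were not (log2 fold change 0.29 ± 0.35, adjusted p = 0.595). Csf1r, on which macrophage survival depends, was at 33.6, 21.4, 35.7 and 26.0 CPM in sham, at 42.5, 34.5, 31.6 and 29.1 CPM in CLP and at 52.0, 41.4, 26.5 and 28.0 CPM in CLP+DCA mice. The groups overlapped in Csf1r (0.24 ± 0.23, adjusted p = 0.495). It is the only one of the 10 that overlaps another counted gene, the microRNA gene Mir6983. Cd68 varied least, at 5.65, 4.70, 6.30 and 5.53 CPM in sham, 7.4, 4.98, 6.19 and 5.57 CPM in CLP and 8.08, 9.38, 5.58 and 4.49 CPM in CLP+DCA mice. Its log2 fold change was 0.13 ± 0.22 (adjusted p = 0.713), and took the opposite sign (-0.03) when only library sizes were used for scaling.

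**Figure D2:**
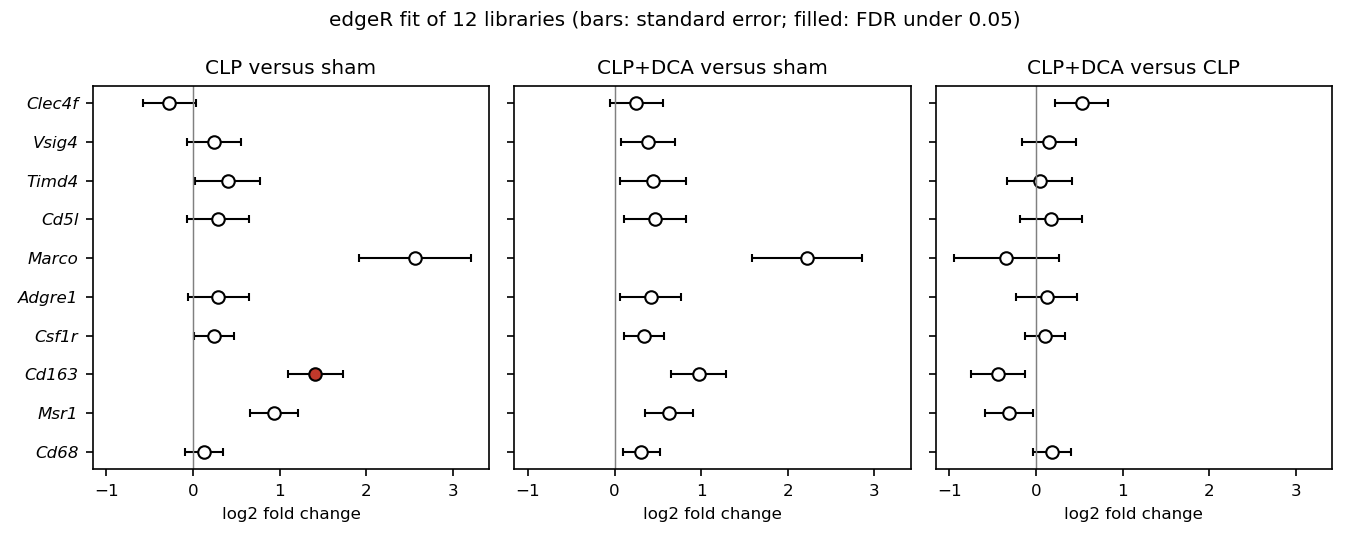
Log2 fold change of each gene (x axis) in the 3 comparisons (CLP with sham, CLP+DCA with sham, and CLP+DCA with CLP), from edgeR on 12 livers; points are estimates, bars are ± SE, and a filled point passed an FDR of 0.05. Cd163 in CLP versus sham is the only filled point, and Marco has the largest estimate (2.56) with a SE of 0.65.

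Because a ratio of 2 genes within a liver does not depend on scaling between libraries, the counts of the Kupffer cell gene Clec4f were also divided by those of the general macrophage gene Adgre1 in each liver. The ratio was 6.77, 5.80, 5.64 and 5.04 in sham mice 1 to 4, 3.87, 4.44, 3.72 and 3.95 in CLP mice, and 4.45, 5.42, 5.94 and 5.86 in CLP+DCA mice. All CLP livers were below all sham livers, 3 of the CLP+DCA livers were within the sham range, and CLP+DCA mouse 1 was below it. The CLP ratio was 0.689-fold that of sham, a log2 difference of -0.54, with p = 0.0286 in a two-sided exact permutation test, the smallest that 70 splits of 4 against 4 can give (0.0429 adjusted over the 3 comparisons of this ratio). CLP+DCA livers were 1.35-fold higher than CLP livers (log2 difference 0.43, exact p = 0.0286, adjusted 0.0429). That separation was narrow, since CLP+DCA mouse 1 at 4.447 was just above CLP mouse 2 at 4.438, and the exact p was 0.0571 without any 1 of the CLP livers. CLP+DCA and sham livers differed by -0.10 (exact p = 0.486, adjusted 0.486). Neither gene passed the edgeR test on its own. The smallest p is reached whenever 2 groups of 4 do not overlap. In CPM, 26.5% of all genes did not overlap between CLP and sham livers, and 4.37% between CLP+DCA and CLP livers. The share of other gene ratios apart in this way is not given here.

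The other genes were divided by Adgre1 in the same way and are given as ranges without a test. Marco was at 0.661 to 1.49 times the Adgre1 count in sham, 2.21 to 10.1 times in CLP and 0.630 to 16.2 times in CLP+DCA livers. Cd163 was at 0.523 to 1.19 times in sham, 1.49 to 2.92 times in CLP and 0.907 to 2.59 times in CLP+DCA livers. Sham and CLP livers were thus apart in both receptors also relative to Adgre1. The share of all genes apart in such a ratio is not given here. In CPM, 26.5% of all genes did not overlap between these groups, counting both directions. The ratio of Msr1 overlapped by a narrow margin (0.813 to 0.956 in sham and 0.933 to 2.19 in CLP), and those of Vsig4, Timd4, Cd5l, Csf1r and Cd68 overlapped widely.

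**Figure D3:**
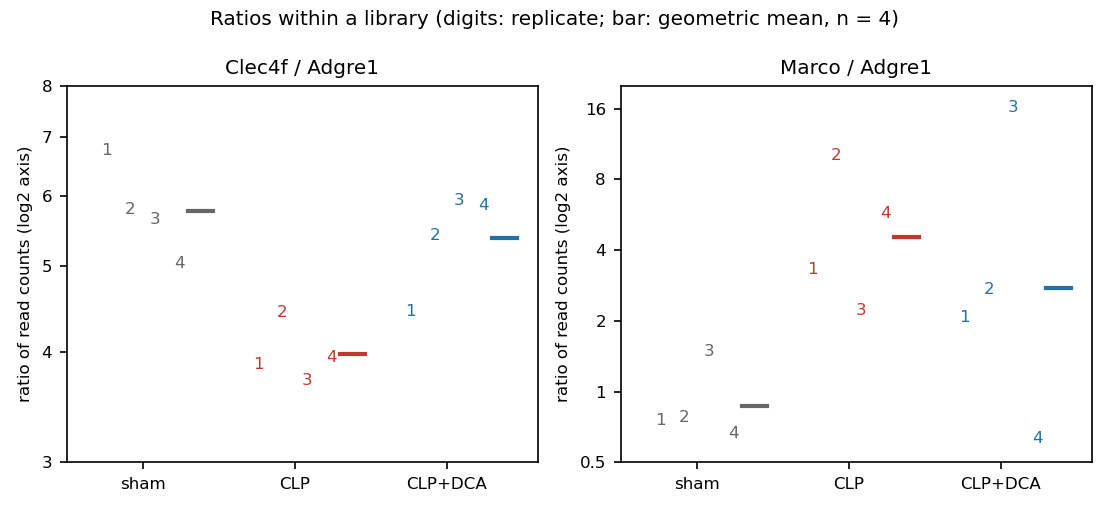
Ratio of the counts of Clec4f to Adgre1 and of Marco to Adgre1 (y axis) in each liver of the sham, CLP and CLP+DCA groups (x axis); digits are mice by replicate number on a log2 axis, and bars are geometric means. CLP livers lie between 3.72 and 4.44 for Clec4f, below the sham livers (5.04 to 6.77), and between 2.21 and 10.1 for Marco, above them (0.661 to 1.49).

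With DCA, none of the 10 genes passed the test against CLP livers, and the 4 livers differed widely from each other. Against CLP, 0 of the 10 genes were called by edgeR, with 0.00758% of all genes called, and 0 of the 10 had an unadjusted p under 0.05, which 10% of all genes had. DESeq2 called 0 (0.815% of all genes) and voom called 2, Clec4f higher (0.79, adjusted p = 0.0477) and Msr1 lower (-0.64, adjusted p = 0.0400), in a fit that called 9.76% of all genes and down-weights livers that stand apart. Leaving out CLP mouse 3 and CLP+DCA mouse 3 together, a choice made after seeing the data, edgeR also called Clec4f (0.80) and Msr1 (-0.80, adjusted p = 0.0167), with 16.9% of all genes called. On all 12 livers the estimates were 0.53 ± 0.31 for Clec4f, -0.31 ± 0.27 for Msr1, -0.44 ± 0.31 for Cd163 and -0.34 ± 0.61 for Marco, and the other 6 genes lay between 0.04 and 0.18. The CLP+DCA and CLP livers overlapped in all 10 genes, and did not in 4.37% of all genes.

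Against sham, which is also the control of the CLP comparison, 0 of the 10 genes were called by edgeR in CLP+DCA livers, with 0.0379% of all genes called. An unadjusted p under 0.05 was found for 3 of the 10, and for 13% of all genes. Marco was 2.22 ± 0.64 higher on the log2 scale (adjusted p = 0.265), Cd163 0.97 ± 0.32 (adjusted p = 0.290) and Msr1 0.62 ± 0.28 (adjusted p = 0.377), next to 2.56, 1.41 and 0.94 in CLP versus sham. DESeq2 on the 12 livers called Marco (2.20, adjusted p = 0.0159, with 1.83% of all genes called) and voom called Cd163 (1.27, adjusted p = 0.0482, with 3.59%). All 10 fold changes were positive, with a median of 0.43 beside 0.01 over all genes, and in all 10 genes the CLP+DCA livers overlapped with the sham livers, while 9.76% of all genes did not overlap.

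CLP+DCA mouse 3 had the lowest Clec4f, Vsig4, Timd4, Cd5l and Adgre1 of all 12 livers together with the highest Msr1, and its Marco (86.9 CPM) was within 1 CPM of the highest (87.7 CPM, CLP mouse 2). CLP+DCA mice 1 and 2 had the 2 highest levels of Clec4f, Vsig4, Timd4, Cd5l, Adgre1 and Cd68. CLP+DCA mouse 4 was within the sham range of Clec4f, Vsig4, Timd4, Cd5l, Marco, Adgre1, Csf1r, Cd163 and Msr1, and below it in Cd68.

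**Figure D4:**
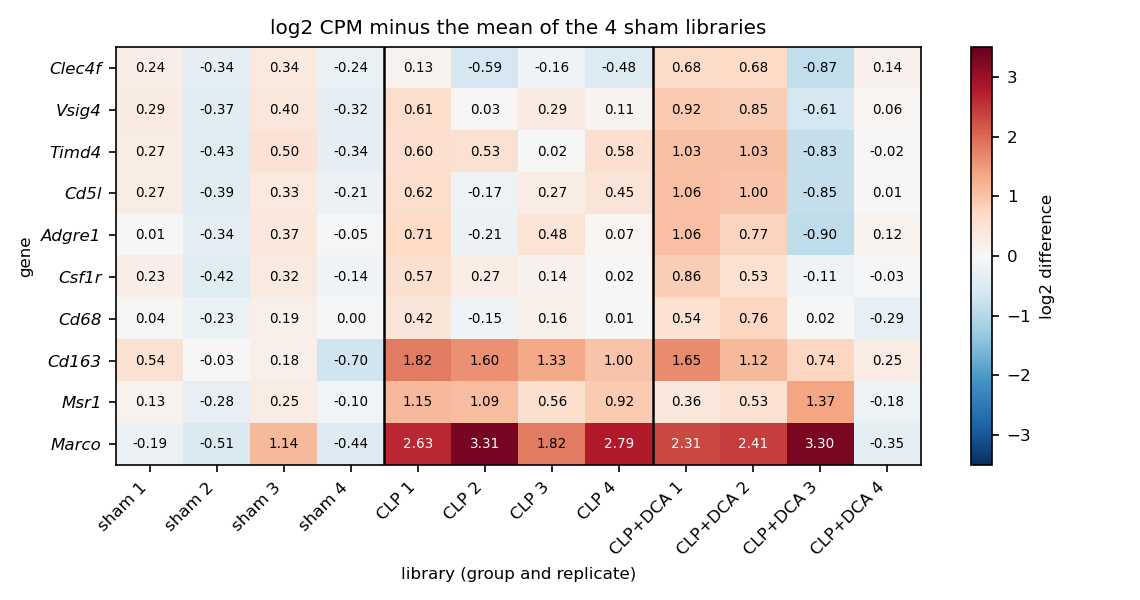
Difference of log2 CPM from the sham mean (colour) for each of the 10 genes (rows) in each of the 12 livers (columns, by group and replicate). In CLP+DCA mouse 3, Clec4f, Vsig4, Timd4, Cd5l and Adgre1 are low while Marco and Msr1 are high. In CLP+DCA mouse 4 the Marco cell is at the colour of sham.

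How the 10 genes varied together from mouse to mouse depended in part on CLP+DCA mouse 3. After the mean of its group was taken from each log2 CPM, Clec4f, Vsig4, Timd4, Cd5l and Adgre1 correlated with each other at 0.81 to 0.98 over the 12 livers, and at 0.59 to 0.96 over the 11 livers without CLP+DCA mouse 3. Csf1r correlated with these 5 genes at 0.81 to 0.90, and at 0.81 to 0.92 without that liver. Marco and Msr1 correlated at 0.87 with each other, and at 0.88 without it. Over the 12 livers Marco correlated with the 5 genes at -0.13 to 0.19 and Msr1 at -0.40 to -0.14, but without CLP+DCA mouse 3 these were 0.48 to 0.91 and 0.49 to 0.94. The separation of Marco and Msr1 from those 5 genes thus rested on that 1 liver. These coefficients describe livers that share group structure and library scaling.

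Among the 11607 genes of at least 1 CPM, the one most like each member over the 12 livers was found by the Pearson correlation of log2 CPM, as a description over samples that share group and library scaling. Marco was nearest to Spi1, which encodes PU.1 (r = 0.98, Spearman's rho = 0.95, and r = 0.96 without the 2 livers farthest from its median), and Msr1 to the lysosomal transporter gene Slc15a3 (0.97, 0.94 and 0.96). Clec4f was nearest to Josd2 (0.96, 0.98 and 0.96) and Timd4 to the cation channel gene Trpm2 (0.96, 0.95 and 0.96). Vsig4 and Cd5l shared the same nearest gene, the proteoglycan gene Sdc3, with r of 0.98 and 0.95 (0.97 and 0.92 without the 2 farthest livers). Csf1r was nearest to Nckap1l (r = 0.94, and 0.85 without the 2 farthest livers), Cd163 to Rab4b (0.95 and 0.90), Cd68 to Was (0.93 and 0.83) and Adgre1 to the creatine kinase gene Ckb (0.92 and 0.88). Nckap1l and Was encode regulators of actin in blood cells.

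Genes that go with these 10 in macrophage biology were described from lists written for the purpose, with values from the same edgeR fit of CLP versus sham. Of 10 other Kupffer cell genes, among them the complement genes C1qa, C1qb and C1qc and the iron exporter gene Slc40a1, 1 was called: Il18bp, which encodes the binding protein that neutralises IL-18 (log2 fold change 1.30, adjusted p = 0.0403). Clec1b, a receptor of podoplanin, was at 0.55 (adjusted p = 0.0815), and the 10 ranged from -0.32 to 1.30 with a median of 0.25. Of 10 genes for CSF1R ligands and transcription factors of macrophages 0 were called. The repressor gene Id3 was at -0.91 (adjusted p = 0.0796) and Spi1 at 0.65 (adjusted p = 0.0945). Their summed level was 261 to 316 CPM in sham and 177 to 234 CPM in CLP livers.

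Of 14 other phagocytic receptors, 1 was called, Stab1, a scavenger receptor of sinusoidal endothelium and some macrophages (0.71, adjusted p = 0.0432), and the integrin gene Itgb2 was at 1.39 (adjusted p = 0.0577). Of 10 lysosomal genes 0 were called, with Gpnmb at 2.40 (adjusted p = 0.0643) and Lgmn at 1.05 (adjusted p = 0.0771), and a list median of -0.12. Of 5 tested macrophage activation genes, from a list of 11, the cytokine gene Il1b was called (1.36, adjusted p = 0.0463). Retnla was at 4.11 (adjusted p = 0.0508), on at most 24 reads in any liver. Its mean level was very low, 0.019 (sham) against 0.43 CPM (CLP), and the groups overlapped. Gpnmb also had few reads, at most 29 per liver, with means of 0.088 (sham) against 0.48 CPM (CLP) and no overlap. Tnf, Il6, Il10, Nos2, Acod1 and Ptgs2 had too few reads to be tested. None of the genes of these lists was called by edgeR in either comparison of CLP+DCA livers.

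Markers of blood cells other than macrophages were measured beside the scavenger receptors. Of 10 tested neutrophil markers 9 had higher fitted levels in CLP livers and 1, Ly6g, had a lower one (-0.78, adjusted p = 0.136). In this list 2 genes were called, Retnlg (3.10, adjusted p = 0.0254) and the gelatinase gene Mmp9 (2.38, adjusted p = 0.0461). The summed level of the list was 6.66 to 9.71 CPM in sham and 34.0 to 48.5 CPM in CLP livers, and 6.54, 14.9, 63.5 and 7.22 CPM in CLP+DCA mice 1 to 4. It was thus highest in the CLP+DCA liver with the highest Marco and Msr1, and at the sham level in CLP+DCA mouse 4, whose Marco was at the sham level too, but also in CLP+DCA mouse 1, whose Marco was at 43.6 CPM. Camp, a granule gene of that list, had no read in any sham liver. Of 11 tested monocyte genes, Itgam, the CD11b gene that neutrophils and Kupffer cells also carry, was called (3.42, adjusted p = 0.0482) and Chil3 was at 3.41 (adjusted p = 0.0692). The summed level of monocyte genes was 57.9 to 91.8 CPM in sham, 83.2 to 119.8 CPM in CLP and 63.4 to 195 CPM in CLP+DCA livers. What part incoming monocytes and neutrophils have in the levels of Marco, Cd163 and Msr1 was not tested.

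Markers of the remaining cell types gave 1 call. Of 7 hepatocyte genes, which were all lower in CLP livers, Alb was called (-1.11, adjusted p = 0.0463), and Ttr was at -0.60. Of the 7 pan-leukocyte genes, 6 had higher and 1, Lcp1, lower fitted levels in CLP livers, with a median log2 fold change of 0.34 and 0 calls. Lcp1 was at -0.49 and Ptprc at 0.34. Their summed level was 121 to 137 CPM in sham and 88.9 to 132 CPM in CLP livers. Most of that sum was Lcp1, with a mean of 95.0 CPM in sham and 67.6 CPM in CLP livers. In CLP+DCA livers that sum was 104 to 142 CPM. The 3 tested dendritic cell markers had 0 calls (Clec9a 0.44, Xcr1 -0.83), as did 5 lymphocyte markers (Cd4 -1.13), 9 markers of sinusoidal endothelium (Lyve1 2.29, Pecam1 1.11) and 7 of stellate cells (Des 4.42, Dcn 0.78), with Des, also a gene of skeletal muscle, at 0.77 without CLP mouse 3. Without CLP mouse 3, the counts called were 2 of 14 phagocytic receptors, 1 of 9 endothelial markers (Lyve1, 2.47, adjusted p = 0.0472) and 2 of the 10 members, and those of the other lists were as before.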

How the data were processed

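RNA-seq was done on 12 whole mouse livers (4 sham, 4 CLP, 4 CLP+DCA). Per the labels and the study's methods, the authors used STAR 2.5 to align reads to mm10 and featureCounts (Subread 1.5.0-p1) to count them, and deposited unnormalized counts per gene. They tested genes with DESeq2. The gene annotation and strand setting behind the counts are not given in the sources used here. Total counts were 24436513 to 44266819 per liver. Groups and replicate numbers came from the sample titles. No 2 libraries of a group agreed within sampling noise (chi-square per degree of freedom of at least 24.8).

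Counts were analysed in R 4.3.3 with edgeR 4.0.16: filterByExpr (minimum count 10), TMM, a robust quasi-likelihood fit with 1 mean per group on all 12 livers, 3 contrasts, and Benjamini-Hochberg adjustment over 13190 genes at 0.05. The SE was the absolute log2 fold change over the square root of the F statistic. Log2 CPM used a prior count of 2, and ratios had 0.5 added to each count. Correlations used genes of at least 1 CPM. The edgeR fits on 12 and on 8 livers, the blocked fit, DESeq2 and voom were tested on simulated data for CLP versus sham only. Alternatives were RLE, library size alone, other filters, an FDR of 0.1, DESeq2 1.42.0, limma 3.58.1 voom with sample weights, 8 livers only, the replicate number as a block, and leaving out each liver. Leaving CLP+DCA mouse 3 out of the correlations and CLP mouse 3 out of the list values was chosen after seeing the data. Lengths per kb came from GENCODE M21 exons.

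The 10 genes, the other 13 lists (125 genes) and the rules were chosen with earlier results of these data known. All 10 were named, with the 2 genes of smallest p in CLP versus sham from each list, any list gene past the FDR, and the gene most like each member, except 1 list gene that is not reported here. The labels give no batch.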

Additional observations from a re-analysis of the deposited data

Results flagged for a closer look

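In the CLP group, Timd4 in CLP mouse 3 lay far below the other 3 livers. Its log2 CPM was 2.17 (4.42 CPM), and its gap to the nearest liver was 0.879 of the whole range of the group, above Dixon's 95% critical value for 4 samples. Of the 33 sets of 4 values examined in this way this was the only such case, and chance alone gives about 1 in 20. The same liver held the skeletal muscle reads, with 2481 CPM over the 8 muscle genes. It was not the lowest CLP liver for Clec4f, Vsig4, Cd5l, Adgre1 or Cd68, but it was for Marco (31.1 CPM) and Msr1 (13.1 CPM). Without it, the log2 fold change of Timd4 in CLP+DCA versus CLP was -0.08 in place of 0.04.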

How the results depend on the processing

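In CLP versus sham, where 1 of the 10 genes was called, 3 were called at an FDR of 0.1, by DESeq2 on 12 or on 8 livers, by edgeR on 8 livers, by voom and without CLP mouse 3 and CLP+DCA mouse 3 together (the last chosen after seeing the data). The count was 0 with library size alone and with no filter, and 0 to 3 when 1 liver was left out: 3 without CLP+DCA mouse 3 or 4, 2 without CLP mouse 3, 1 without CLP+DCA mouse 1 and 0 without any other. Of all genes, DESeq2 called 13% on 12 and 23.3% on 8 livers, edgeR on 8 livers called 18.3% and voom 25.9%. Without CLP mouse 3 and CLP+DCA mouse 3 together, 31.1% of all genes were called. The share of all genes at an FDR of 0.1 is not given here. Over 22 alternatives Cd163 was called in 12 (log2 fold change 1.22 to 1.61, adjusted p 1.03e-05 to 0.125), Marco in 8 (2.303 to 3.12, 2.79e-08 to 0.144) and Msr1 in 7 (0.76 to 1.05, 1.30e-05 to 0.178). With 1 liver left out, edgeR called between 10 (without sham mouse 3) and 3157 genes in all (without CLP+DCA mouse 3), against 367 on all 12, edgeR on 8 livers called 2387 and DESeq2 on 8 livers called 3428. In CLP+DCA versus sham the count of 0 became 1 with DESeq2 on 12 livers (Marco) and 1 with voom (Cd163), and in CLP+DCA versus CLP it became 2 with voom and 2 without CLP mouse 3 and CLP+DCA mouse 3. It was 0 in both comparisons whichever single liver was left out. The cause of these shifts was not tested.

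The log2 fold change of Cd68 in CLP versus sham was -0.032 with library size alone, a scaling that moved the median of all genes to -0.15. In CLP+DCA versus CLP small estimates changed sign when 1 liver was left out, with ranges of -0.060 to 0.38 (Vsig4), -0.21 to 0.31 (Timd4), -0.073 to 0.44 (Cd5l), -0.85 to 0.017 (Marco), -0.16 to 0.39 (Adgre1), -0.11 to 0.23 (Csf1r) and -0.013 to 0.34 (Cd68). They were negative without CLP+DCA mouse 1 (Vsig4, Timd4, Cd5l, Adgre1, Csf1r), without CLP+DCA mouse 2 (Vsig4, Timd4, Cd5l, Adgre1, Cd68), without CLP mouse 2 (Adgre1) and without CLP mouse 3 (Timd4), and Marco was positive without CLP+DCA mouse 4. None of these passed the test.

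Leaving out 1 liver, the log2 ratio of Clec4f to Adgre1 differed by -0.60 to -0.46 in CLP versus sham (exact p = 0.0286 throughout), by -0.17 to -0.01 in CLP+DCA versus sham, and by 0.39 to 0.53 in CLP+DCA versus CLP (exact p = 0.0286 or 0.0571).

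The replicate numbers did not pair the samples: same-numbered livers had correlations of -0.46 to 0.55 between CLP+DCA and CLP, and of -0.05 to 0.09 between CLP and sham. With the replicate number as a block, 1, 0 and 0 of the 10 genes were called in the 3 comparisons, Timd4 in CLP+DCA versus CLP was at -0.040, and genes called in CLP versus sham fell from 367 to 46. Paired by number, the Clec4f to Adgre1 ratio gave the same differences, -0.54 (CLP versus sham) and 0.43 (CLP+DCA versus CLP), with an exact sign-flip p = 0.125, the smallest that 4 pairs allow.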
